A study of Homo sapiens with 6 samples.

Results

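LYPD1 encodes a small glycolipid-anchored protein of the LY6/uPAR family, and its gene lies tail to tail with GPR39 on human chromosome 2. The 7 genes described here are LYPD1, its opposite-strand neighbour GPR39 and the family members LYPD3, LYPD6, LYPD6B, LY6E and LY6K. They were chosen by name from the 16279 genes of the deposited tables, and all 7 passed the filter on low counts that left 13311 genes for testing. LYPD1 was picked because its level rises with treatment in these same libraries, so its own rise is given as a description with no test. The cells were 12Z, an established human endometriotic epithelial line. Control cells were left untreated (n = 3), and the other group received rhChem157S, a recombinant form of the adipokine chemerin, at 10 ng/mL for 48 h (n = 3). The dose and time come from the study's methods and not from the sample labels, and the labels call the libraries biological replicates.

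Proteins of the LY6/uPAR family share a compact fold of finger-like loops held by disulfide bonds, and most are tied to the outer membrane by a glycosylphosphatidylinositol (GPI) anchor. LYPD1 and several relatives bind nicotinic acetylcholine receptors and tune their response, LYPD6 is also known as a helper of Wnt co-receptors, and LY6E is an interferon-induced gene whose mouse counterpart acts as a placental receptor for a syncytin. GPR39 is unrelated by fold: it is a G protein-coupled receptor of the ghrelin receptor family that senses extracellular zinc.

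In GENCODE release 29 on GRCh38, LYPD1 (ENSG00000150551.10) spans chr2:132644853-132671579 on the minus strand and GPR39 (ENSG00000183840.6) spans chr2:132416574-132646559 on the plus strand. Their last exons overlap over 1180 bases, from 132645101 to 132646280. The shared stretch holds 48.9% of the exon bases of LYPD1 and 34.8% of those of GPR39. Of the 426 coding bases of LYPD1, 236 (55.4%) lie in it, and of the 1362 coding bases of GPR39, 506 (37.2%) do. No base (0) was coding in both genes, and 438 bases were coding in neither. The strand setting of the counting is not given in the sources used here, so reads from the shared stretch cannot be assigned to one gene with certainty, and the values of both genes carry that limit.

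**Figure D1:**
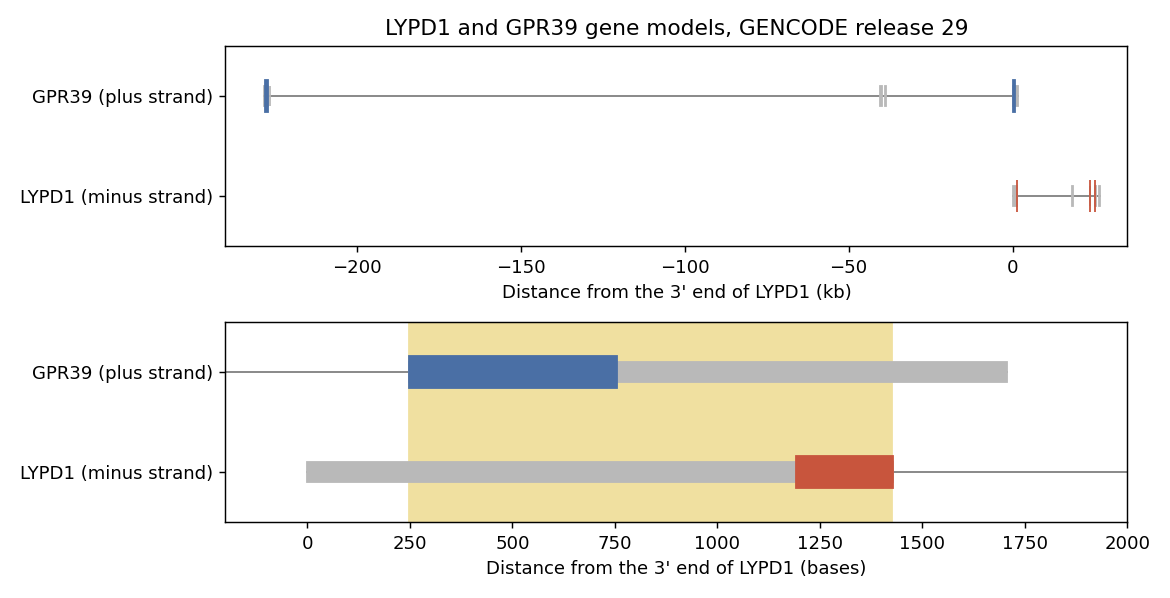
Gene models of LYPD1 and GPR39 along the distance from the 3′ end of LYPD1, in kilobases (top) and, near that end, in bases (bottom). Grey boxes are exons, coloured boxes are coding bases, grey lines are introns, and the yellow band marks the 1180 exon bases that the genes share on opposite strands.

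The coding bases of LYPD1 that no exon of GPR39 touches are shown here, because reads over them bear on LYPD1 alone. They come from the coding parts of the exons at chr2:132669881-132669932 and chr2:132668400-132668537, 190 bases in all on the minus strand of GRCh38, read from the GENCODE transcript with the start codon in capitals.
LYPD1 coding bases outside GPR39: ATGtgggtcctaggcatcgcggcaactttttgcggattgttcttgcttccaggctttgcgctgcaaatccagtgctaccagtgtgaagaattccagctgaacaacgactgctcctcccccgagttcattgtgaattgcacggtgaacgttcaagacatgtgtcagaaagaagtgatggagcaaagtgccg
The same-strand transcript letters of any 2 of the 7 genes matched over at most 14 bases in a row, and those of LYPD6 and LYPD6B over 13, so long stretches shared between the members were not found outside the LYPD1 and GPR39 overlap.

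RefSeq gives LYPD1 a pair of start sites, and the letters upstream of each are shown because LYPD1 is the gene that the choice of members turned on. Windows from 250 bases before to 50 after each start (GRCh38.p14) were searched on both strands. The TATA box was searched as TATAAA, and 11.5% of all 35116 windows held it. The letters CCAAT were found in 34.6% of the windows. The GC box was searched as GGGCGG and found in 45.0%. The AP-1 element was searched as TGANTCA and found in 7.71%. The outer LYPD1 window held 2 AP-1 matches, which adjoin each other, a pair of matches to the CCAAT letters and 3 CpG. The inner window held 2 GC boxes and 24 CpG, against a median of 14 CpG over all windows. Matches are in capitals below, on the minus strand, and only the letters that lie in no LYPD1 exon are printed.
Outer start, chr2:132671580-132671776: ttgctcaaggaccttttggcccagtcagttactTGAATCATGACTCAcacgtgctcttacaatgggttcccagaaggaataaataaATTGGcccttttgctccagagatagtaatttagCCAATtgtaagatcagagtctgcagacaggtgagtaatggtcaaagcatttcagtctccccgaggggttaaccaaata
Inner start, chr2:132670206-132670455: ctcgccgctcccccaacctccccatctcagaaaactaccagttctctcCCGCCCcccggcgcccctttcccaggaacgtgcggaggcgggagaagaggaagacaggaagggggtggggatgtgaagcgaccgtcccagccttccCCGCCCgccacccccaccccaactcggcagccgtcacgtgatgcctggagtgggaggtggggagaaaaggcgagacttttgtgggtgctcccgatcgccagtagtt
These matches are a description of the letters and not of binding.

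Library totals ran from 35430881 to 38341643 counts. A single count is worth 0.0282 CPM (counts scaled to the library total) in the shallowest library. Levels are given as FPKM, which divide by gene length, and fold changes come from the counts after TMM scaling (edgeR). Of the epithelial markers, KRT8 stood between 749 and 966 FPKM and KRT18 between 555 and 640 FPKM, whereas CDH1 (0.0859 to 0.381 FPKM) and EPCAM (0.125 to 0.807 FPKM) were near 0. Of the fibroblast markers, COL1A1 (728 to 1165 FPKM) was abundant, whereas PDGFRA (1.37 to 3.10 FPKM) and PDGFRB (5.52 to 21.2 FPKM) stood far lower. Of the leukocyte markers, the pan-leukocyte PTPRC had 4 to 12 counts in a library, whereas CD68 stood at 70.0 to 134 FPKM. CD14 stood at 51.5, 41.1 and 36.9 FPKM in Control and 21.2, 15.2 and 6.64 FPKM in treated libraries. The summed FPKM of the 9 fibroblast markers was 2694 to 3079 in Control and 3819 to 4417 in rhChem157S-treated libraries. VIM alone stood at 827 to 991 and 1507 to 3247 FPKM, and the other 8 summed to 1703 to 2198 and 1170 to 2312 FPKM, which overlapped; the median log2 fold change of the 9 was 0.01. The summed FPKM of the 9 tested of 12 epithelial markers was 1598 to 1867 and 1761 to 1977, that of the 3 tested of 6 endothelial markers 1.58 to 1.97 and 0.965 to 1.41, and that of the 3 tested of 6 leukocyte markers 122 to 172 and 92.8 to 136. TEK, an endothelial receptor, had 0 or 1 count in a library. edgeR called 0 genes in each marker list. DESeq2 called 2 of the 9 fibroblast markers higher, VIM (adjusted p = 6.00e-06) and PDGFRA (0.0212). In each of the other marker lists it called 1 gene lower: MUC1 (0.0363), VWF (0.00608) and CD14 (0.000511). Over all genes DESeq2 called 4.58% higher and 6% lower. All libraries were of the 12Z line, and the study describes no other cell type in the culture. The part of these marker differences in the results was not tested. In bulk RNA, fewer cells with a transcript and less of it per cell cannot be told apart.

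LYPD1 stood at 2.31, 1.81 and 2.08 FPKM in Control replicates 1 to 3 and at 4.99, 5.38 and 4.88 FPKM in rhChem157S replicates 1 to 3. Each treated library was above each Control library, and both groups were tight. The means were 2.07 ± 0.249 FPKM (SD, n = 3) and 5.08 ± 0.263 FPKM (SD, n = 3). The counts were 327, 266 and 300 in Control and 765, 781 and 730 in treated libraries. On the count scale the fold was 2.69, a log2 fold change of 1.43 (SE 0.14, 95% interval 1.10 to 1.76). With any 1 library left out the log2 fold change stayed between 1.34 and 1.52. Because LYPD1 was picked for this rise, neither the interval nor that range is a test of it.

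**Figure D2:**
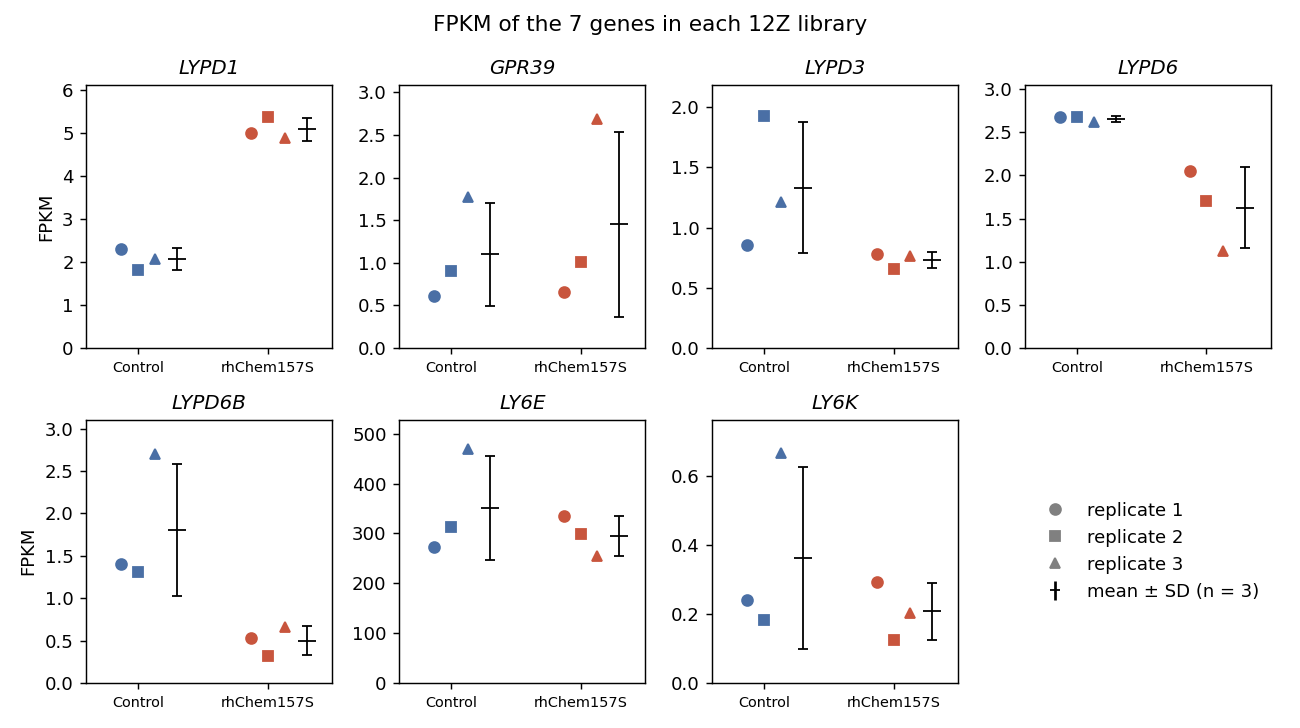
FPKM of each gene (y axis, from 0, one scale per gene) in Control and rhChem157S-treated libraries (x axis); symbols mark the replicate and black bars the mean ± SD of 3 libraries. On this scale LYPD1 is higher in all treated libraries, LYPD3, LYPD6 and LYPD6B are lower in all of them, and replicate 3 of Control carries the highest LYPD6B, LY6E and LY6K.

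GPR39 is the zinc-sensing receptor whose last exon overlaps that of LYPD1. Its level was 0.614, 0.908 and 1.78 FPKM in Control and 0.658, 1.01 and 2.69 FPKM in treated libraries. The groups overlapped, and replicate 3 was the highest library of each group. The log2 fold change was 0.57 (SE 0.62, 95% interval -0.89 to 2.03), and edgeR's quasi-likelihood test gave an adjusted p of 0.600. That interval includes the log2 fold change of LYPD1, and the difference between the genes was not tested. Without rhChem157S replicate 3 the log2 fold change was -0.32, and without Control replicate 3 it was 1.10. The sign and size of the GPR39 difference thus depended on which of these high libraries was kept. The ratio of LYPD1 to GPR39 counts was 5.84, 3.09 and 1.82 in Control and 11.8, 8.31 and 2.82 in treated libraries. The ratio varied more within each group than LYPD1 itself did.

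Of the 6 genes other than LYPD1, edgeR called 0 at an adjusted p under 0.05, where 0.0301% of all genes tested were called. An unadjusted p under 0.05 was found for 2 of the 6 and for 22.8% of all genes tested. DESeq2 called 2 of the 6, LYPD6 and LYPD6B, both lower with rhChem157S, against 10.6% of all genes called in either direction and 6% called lower. None (0) of the 6 was called higher by DESeq2, against 4.58% of all genes. The groups did not overlap for the same 2 genes, both lower, against 16% of all genes lower without overlap and 16.5% higher. With scaling by library size only, LYPD3 also separated the groups. That scaling moved the median of all genes by -0.13 on the log2 scale, and the genes that separated the groups were then 22.7% higher and 77.3% lower, against 50.8% and 49.2% after TMM scaling. Low genes were lower more often: without overlap, 26.4% of genes at 0.1 to 1 FPKM and 18.0% of genes at 1 to 10 FPKM were lower, against 10.7% at 10 to 100 FPKM, and LYPD6 and LYPD6B lay in the 1 to 10 FPKM range.

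LYPD6 and LYPD6B are neighbours on chromosome 2, on the plus strand at chr2:149329985-149474148 and chr2:149038107-149215262, and both encode modulators of nicotinic receptors. LYPD6 stood at 2.68, 2.68 and 2.62 FPKM in Control and at 2.06, 1.70 and 1.13 FPKM in treated libraries. The Control libraries lay close together and every treated library was below them. The log2 fold change was -0.59 (SE 0.19, 95% interval -1.03 to -0.16), with an adjusted p of 0.141 in edgeR and 0.0450 in DESeq2. DESeq2 no longer called LYPD6 when Control replicate 1 (adjusted p = 0.190), Control replicate 2 (0.260), Control replicate 3 (0.178) or rhChem157S replicate 2 (0.144) was left out.

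LYPD6B stood at 1.40, 1.31 and 2.70 FPKM in Control and at 0.525, 0.313 and 0.662 FPKM in treated libraries. Its counts were 96, 93 and 189 against 39, 22 and 48. Every treated library was again below every Control library, with Control replicate 3 well above the other two. The log2 fold change was -1.71 (SE 0.44, 95% interval -2.74 to -0.67), with an adjusted p of 0.109 in edgeR and 0.00678 in DESeq2. DESeq2 lost the call without Control replicate 3 (adjusted p = 0.118) and without rhChem157S replicate 2 (adjusted p = 0.0662). LYPD6 had 6.94, 7.44 and 3.51 counts per LYPD6B count in Control and 14.2, 19.7 and 6.17 in treated libraries. The log2 ratio was higher by 1.08 with rhChem157S, which an exact two-sided permutation test did not separate from the spread between libraries (p = 0.3, where 3 libraries against 3 cannot go below 0.10).

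LYPD3 encodes an anchored protein of stratified epithelia that binds laminin, and its gene lies at chr19:43460787-43465660 on the minus strand. Its level was 0.859, 1.92 and 1.22 FPKM in Control and 0.778, 0.654 and 0.765 FPKM in treated libraries. The treated libraries were close together and low, and Control replicate 2 was the highest of all. By FPKM the groups did not overlap, but after TMM scaling they did. On that scale the log2 fold change was -0.73 (SE 0.37, 95% interval -1.60 to 0.15), with an adjusted p of 0.286 in edgeR, and it was -0.37 without Control replicate 2. AGR2, which encodes a known ligand of LYPD3, had at most 8 counts in a library and was not tested.

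LY6E, the interferon-induced member, was by far the most abundant of the 7 genes. It lies on chromosome 8 from 143017982 to 143023832. Its level was 272, 312 and 469 FPKM in Control and 335, 298 and 254 FPKM in treated libraries. Control replicate 3 was the highest of all libraries and Control replicate 1 the lowest by CPM after TMM scaling, so the groups overlapped. Its log2 fold change was -0.12 (SE 0.20, 95% interval -0.58 to 0.34), with an adjusted p of 0.723 in edgeR. Without Control replicate 3 it was 0.14, of the opposite sign.

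That library was also the highest for most of the listed interferon-stimulated genes. Of 34 such genes, which leave LY6E out, 33 were highest in Control replicate 3 within the Control group and 26 were highest there among all 6 libraries. Within Control, 5 of the 7 tested genes of the urokinase system were highest there too. The share of all genes highest in that library was not counted. The median of the list, as log2 CPM relative to the Control mean, was -0.64, -0.21 and 0.88 in Control and -0.26, -0.36 and -0.43 in treated libraries. LY6E on the same scale was -0.31, -0.14 and 0.46 in Control and 0.03, -0.09 and -0.21 in treated libraries. LY6E and the list were thus highest in the same library.

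**Figure D3:**
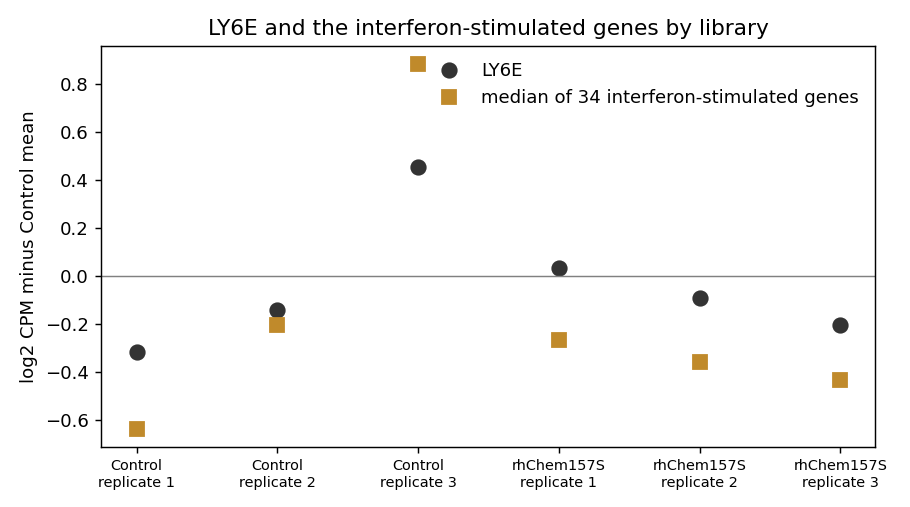
Log2 CPM minus the Control mean (y axis) of LY6E (circles) and the median of 34 interferon-stimulated genes (squares) in the 6 libraries (x axis). Both are highest in Control replicate 3, at 0.46 and 0.88, and lowest in Control replicate 1.

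LY6K, best known from germ cells and tumours, was the least abundant member. It lies on chromosome 8 from 142700111 to 142705127, and 71.0% of its exon bases overlap an antisense RNA gene, LNCOC1, so its counts are uncertain in the same way as those of the LYPD1 and GPR39 pair. Its counts were 28, 22 and 79 in Control and 37, 15 and 25 in treated libraries. Control replicate 3 was again the highest and the groups overlapped. Its log2 fold change was -0.68 (SE 0.60, 95% interval -2.08 to 0.72), with an adjusted p of 0.514 in edgeR, and without Control replicate 3 it was 0.10.

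By mean FPKM over the 6 libraries the order was LY6E at 323, LYPD1 at 3.57, LYPD6 at 2.14, GPR39 at 1.28, LYPD6B at 1.15, LYPD3 at 1.03 and LY6K at 0.285. With the 6 libraries pooled, only LY6E had a range clear of its neighbour in that order. Within the groups, by the deposited FPKM, LYPD6 was above LYPD1 in every Control library (means 2.66 and 2.07 FPKM). On the same scale LYPD1 was above LYPD6 in every treated library, with no overlap in either group. LYPD3 was above LY6K in all 6 libraries and did not overlap it within Control or within treated libraries. LY6E lay above 99.2% of the genes tested and LYPD1 above 33.4%. These orders between genes rest on the deposited gene lengths, which were 4000 bases for LYPD1, 7024 for LYPD6 and 1939 for LYPD6B. The GENCODE exon bases of these genes were 2412, 5033 and 3771. The order of genes close in level, such as LYPD1 and LYPD6 in Control, may therefore depend on the lengths and was not tested with the GENCODE values.

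**Figure D4:**
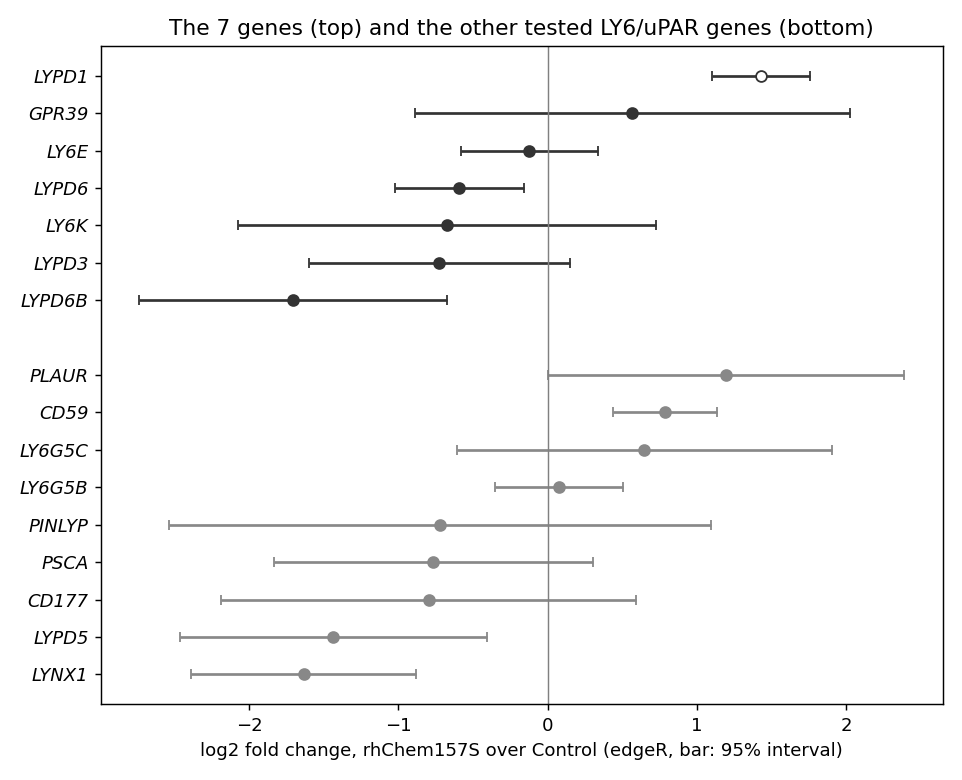
Log2 fold change of rhChem157S over Control (x axis, edgeR) with its 95% interval for the 7 genes (top) and the 9 other tested LY6/uPAR genes (bottom). The open circle marks LYPD1, which was picked for its rise, so its interval is no test of that rise. The intervals of LYPD6 and LYPD6B lie below 0 and those of the other 4 members include 0.

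Of the 30 other LY6/uPAR genes listed, 14 were in the table and 9 were tested; the 5 others had at most 4 counts in a library. edgeR called 0 of the 9 and 4 had an unadjusted p under 0.05 (22.8% of all genes), whereas DESeq2 called 1 higher and 2 lower (4.58% and 6% of all genes). The one called higher was CD59, the inhibitor of the complement attack complex, at 22.6, 22.3 and 24.2 FPKM in Control and 29.6, 38.8 and 40.1 FPKM in treated libraries (log2 fold change 0.79, SE 0.15; adjusted p = 0.0752 in edgeR and 0.000234 in DESeq2). LYNX1, a nicotinic receptor modulator like LYPD1, stood at 0.958, 1.66 and 0.947 FPKM against 0.464, 0.315 and 0.273 FPKM (log2 fold change -1.64, SE 0.32; adjusted p = 0.0752 and 0.000201). LYPD5 was the other gene called lower by DESeq2 (log2 fold change -1.44, SE 0.44; adjusted p = 0.135 in edgeR and 0.0366 in DESeq2). The groups did not overlap for these 3 genes, 1 higher and 2 lower (16.5% and 16% of all genes). The median log2 fold change of the 9 was -0.72, against 0.01 over all genes tested. Leaving out rhChem157S replicate 2 moved that median to -0.22, and leaving out rhChem157S replicate 1 or 3 moved it to -0.47. It turned to 0.06 when genes under 1 CPM were left out.

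The nicotinic receptor subunits, which the LYPD1, LYPD6 and LYNX1 proteins act on, were low. The most abundant of those tested, CHRNB1, stood at 2.55, 2.84 and 2.63 FPKM in Control and 2.46, 1.81 and 2.00 FPKM in treated libraries. Of 16 listed genes 6 were tested. edgeR and DESeq2 each called 0, against 0.0301% and 10.6% of all genes. An unadjusted p under 0.05 in edgeR was found for 1 of the 6, against 22.8% of all genes. That was CHRNE, at 0.177, 0.287 and 0.174 FPKM in Control and 0.0204, 0.0646 and 0 FPKM in treated libraries (adjusted p = 0.136 in edgeR). CHRNA5 stood at 1.05, 1.87 and 1.73 FPKM against 1.88, 1.77 and 1.77 FPKM, and CHRNA7 at 0.0859 to 0.334 FPKM over all libraries. The list's median log2 fold change was -0.27, and it was -0.07 without rhChem157S replicate 2, -0.77 without rhChem157S replicate 1 and -0.48 without Control replicate 1.

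Genes that build and attach the GPI anchor of these proteins were 31 tested of 32 listed, with edgeR calling 0, 3 at an unadjusted p under 0.05 (22.8% of all genes), and a median log2 fold change of 0.00. DESeq2 called PIGZ lower, which encodes a mannosyltransferase of anchor synthesis, at 3.43, 4.33 and 3.42 FPKM in Control and 2.27, 2.04 and 1.10 FPKM in treated libraries (log2 fold change -0.93, SE 0.24; adjusted p = 0.108 in edgeR and 0.00686 in DESeq2). DESeq2 thus called 1 of the 31 lower, against 6% of all genes. PIGO had a log2 fold change of -0.41 and PGAP4 one of -0.32, neither called by edgeR or DESeq2.

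Around GPR39, none of the 7 listed ghrelin receptor family genes was tested, and those in the table reached at most 38 counts. All 18 listed genes of Gq and G12/13 signalling, the routes GPR39 is known to use, were tested, with edgeR calling 0 and 1 at an unadjusted p under 0.05, against 22.8% of all genes. The list also holds GNAS, which encodes the Gs alpha subunit and had a log2 fold change of 0.04. Values above 0 were found for 16 of the 18 log2 fold changes and for 51.7% of all genes. Abundant genes were higher more often, without overlap in 23.9% of genes at 10 to 100 FPKM and 55.2% of those over 100 FPKM. DESeq2 called RHOA higher, the small GTPase downstream of G12/13 (log2 fold change 0.30, SE 0.10; adjusted p = 0.146 in edgeR and 0.0492 in DESeq2). RHOA was the 1 gene of the 18 that DESeq2 called, against 4.58% of all genes called higher. GNA12 (0.32) and ARHGEF1 (0.16) had log2 fold changes above 0 and were not called. The list's median log2 fold change was 0.14 after TMM scaling, 0.01 with library size only and 0.08 without rhChem157S replicate 3. Of 24 zinc transporters 18 were tested. edgeR called 0, and 3 had an unadjusted p under 0.05 (22.8% of all genes). The median log2 fold change was -0.05 (-0.09 without Control replicate 1). DESeq2 called the importers SLC39A4 (log2 fold change -0.70, SE 0.20; adjusted p = 0.126 in edgeR and 0.0208 in DESeq2) and SLC39A8 (log2 fold change -0.40, SE 0.12; adjusted p = 0.134 and 0.0456) lower. Those were 2 of the 18 tested, against 6% of all genes called lower by DESeq2. SLC30A3 had a log2 fold change of -0.48 and was not called.

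Of 14 Wnt co-receptors and feedback genes, the pathway of LYPD6, 8 were tested. edgeR called 0, and 2 had an unadjusted p under 0.05 (22.8% of all genes). The median log2 fold change was -0.37. NOTUM, a secreted Wnt inhibitor, stood at 2.93, 3.44 and 3.99 FPKM in Control and 0.727, 0.645 and 0.842 FPKM in treated libraries. Its groups lay far apart, with a log2 fold change of -2.09 (SE 0.24) and an adjusted p of 0.0574 in edgeR and 2.49e-12 in DESeq2. AXIN2, a feedback inhibitor of the pathway, had a log2 fold change of -0.80 (SE 0.32, adjusted p = 0.201 in edgeR), and LRP5 one of -0.40. DESeq2 called neither, so it called 1 of the 8 lower, against 6% of all genes.

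In the urokinase system, to which the family's namesake PLAUR belongs, all 7 genes in the table were tested. edgeR called 0, and 3 had an unadjusted p under 0.05 (22.8% of all genes). The median log2 fold change was 1.20. After TMM scaling the groups overlapped for all 7 genes, where 16.5% of all genes were higher and 16% lower without overlap. Of the 7, 6 were highest in rhChem157S replicate 3, and the share of all genes highest there was not counted. PLAUR, the urokinase receptor, stood at 17.0, 20.6 and 28.2 FPKM in Control and 16.5, 43.8 and 74.2 FPKM in treated libraries (adjusted p = 0.219 in edgeR). SERPINE2, an inhibitor of urokinase, was the gene DESeq2 called (log2 fold change 1.15, SE 0.39; adjusted p = 0.158 in edgeR and 0.0215 in DESeq2), and SERPINB2 ran from 2.99 to 105 FPKM within the treated group. DESeq2 thus called 1 of the 7 higher, against 4.58% of all genes. The median of the list was 0.55 without rhChem157S replicate 3.

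Among the 34 interferon-stimulated genes edgeR called 0 with 10 at an unadjusted p under 0.05 (22.8% of all genes), and the median log2 fold change was -0.33. DESeq2 called 4 lower and 1 higher (6% and 4.58% of all genes). BST2, an antiviral membrane protein, stood at 28.8, 58.6 and 135 FPKM in Control and 19.0, 12.8 and 10.8 FPKM in treated libraries (log2 fold change -2.26, SE 0.52; adjusted p = 0.0962 in edgeR and 0.0104 in DESeq2). IFI27, IFITM1 and EPSTI1 were the others called lower and SAMD9 was the one called higher (log2 fold change 0.88). IFIT2 ran the other way from BST2, with a log2 fold change of 1.69, and DESeq2 did not call it. The median of the list was -0.06 without Control replicate 3.

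**Figure D5:**
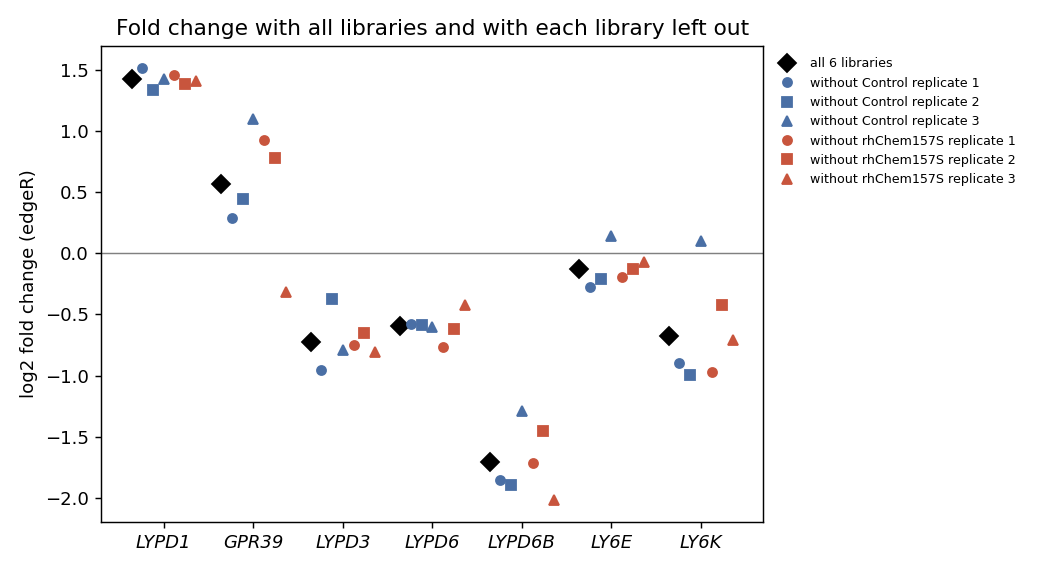
Log2 fold change of rhChem157S over Control (y axis, edgeR) for each of the 7 genes (x axis) with all 6 libraries (black diamonds) and with each library left out in turn (coloured symbols). LYPD1 stays between 1.34 and 1.52, GPR39 changes sign without rhChem157S replicate 3, and LY6E and LY6K change sign without Control replicate 3.

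The 5 genes whose log2 CPM over the 6 libraries was most like that of LYPD1 were THRAP3 (Pearson r = 0.997), TUBA1B (0.996), MKI67 (0.996), RPSA (0.994) and RFC1 (0.994). All 6 points share their libraries with LYPD1 and fall into the same pair of groups, and 556 of the 13311 genes (4.18%) had r over 0.9, so the values are a description. TUBA1B, an alpha tubulin, stood at 1708, 1473 and 1574 FPKM in Control and 2377, 2383 and 2322 FPKM in treated libraries, a log2 fold change of 0.70. RFC1, a subunit of the clamp loader of DNA replication, had one of 0.12 after TMM scaling. Its FPKM overlapped between the groups, at 27.8, 27.4 and 28.0 in Control and 28.5, 28.2 and 26.0 in treated libraries. The likeness was thus in the pattern over the libraries after TMM scaling, while the size of the difference varied between the genes.

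Of the nearest tested genes beside the members, only MMADHC separated the groups after TMM scaling, against 16.5% of all genes higher and 16% lower without overlap. NCKAP5, whose gene lies 0.22 kb beyond the 5′ end of LYPD1, was at 0.0152 to 0.0367 FPKM with a log2 fold change of -0.59 (SE 0.48). CCDC74A, the nearest tested gene on the GPR39 side but 883 kb away, had a log2 fold change of 0.30 (SE 0.20). Beside the LYPD6B and LYPD6 pair, KIF5C, 11.3 kb from LYPD6B, had a log2 fold change of -0.17 (SE 0.50). MMADHC, 95.5 kb away on the far side of LYPD6, had one of 0.16 (SE 0.09). It was higher in all treated libraries after TMM scaling, while its FPKM overlapped between the groups. None (0) of these 4 genes was called by edgeR or DESeq2, against 0.0301% and 10.6% of all genes. The adjusted p in edgeR ran from 0.344 to 0.861. With only 4 genes, a count of 0 does not set them apart from those shares.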

How the data were processed

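RNA from 12Z cells (Control, n = 3; rhChem157S, n = 3) was sequenced as paired-end reads. The authors trimmed reads with fastp, aligned them to GRCh38.p13 with HISAT2 and deposited HTSeq-count read counts without normalization and FPKM for 16279 genes. The annotation release and the strand setting are not given in the sources used here. The deposited FPKM equalled the count over a fixed gene length and the library total in all 89195 values compared, within 0.01%. That gene length was 4000 bases for LYPD1 and 2576 for GPR39, against 2412 and 3387 exon bases in GENCODE release 29.

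Counts were tested in R 4.3.3 with edgeR 4.0.16 (TMM, filter on low counts with the group, quasi-likelihood test, Benjamini-Hochberg over 13311 genes). DESeq2 1.42.0 was run on the same 13311 genes; this gene set was settled after a run on all genes had been seen. Further alternatives were other scalings and filters, removal of single libraries, a replicate block, and limma 3.58.1 applied to FPKM on the log2 scale with a pseudocount of 1 or 0.1. Log2 CPM used a prior count of 2. Tests were tried on simulated data.

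The members and gene lists were chosen with earlier results of these data known, as were the motifs and the FPKM ranges. The text names the members, the called genes, any list gene called by DESeq2, the nearest tested neighbours and the 5 genes most like LYPD1. It also names up to 3 genes with the smallest p per list, apart from the marker lists. AGR2, TEK, CHRNB1 and the marker genes were named after their values were seen. Sequences came from RefSeq promoter windows (GRCh38.p14), which held 8 windows for 5 of the 7 members, and from GENCODE release 29 transcripts.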

Additional observations from a re-analysis of the deposited data

How the results depend on the processing

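The count of genes called by edgeR, 4, was 17 with no filter on low counts, 179 with limma on log2(FPKM + 1), 23 with limma on log2(FPKM + 0.1) and 1407 with DESeq2. With 1 library left out it ranged from 0 to 844: it was 844 without rhChem157S replicate 1, 415 without rhChem157S replicate 3 and 0 without each of the other 4, where 1666 to 2190 genes had an unadjusted p under 0.05. The replicate numbers were not taken as pairing, since the deviations of same-numbered libraries correlated at 0.24, 0.00 and 0.25 and Control replicate 2 was most like number 1; with the replicate block 1 gene was called.

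The log2 fold change of LYPD1 was 0.99 with limma on log2(FPKM + 1) and 1.26 on log2(FPKM + 0.1), both without TMM scaling, 1.30 in edgeR with library size only, and 1.34 to 1.52 with 1 library left out. GPR39 ranged from -0.32 to 1.10 with 1 library left out, LY6E from -0.27 to 0.14 and LY6K from -0.999 to 0.10; the value turned to -0.32 without rhChem157S replicate 3 for GPR39, and to 0.14 and 0.10 without Control replicate 3 for LY6E and LY6K. LYPD3 ranged from -0.96 to -0.37 with 1 library left out, LYPD6 from -0.77 to -0.42 and LYPD6B from -2.02 to -1.29. LYPD3 and the edgeR values of LYPD6 and LYPD6B kept their direction in all 14 settings each, and DESeq2 alone called LYPD6 (-0.60) and LYPD6B (-1.71). LY6K had no value under the stricter filter of 1 CPM in 3 libraries.

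In settings added after the data were seen, DESeq2 on all genes called 1319, with LYPD6 at an adjusted p of 0.0474 and LYPD6B at 0.00567. With 1 library left out DESeq2 called 309 to 2687 genes, and 2 to 4 of the 9 other LY6/uPAR genes. LYPD6 then ranged from -0.76 to -0.42 (adjusted p 0.00240 to 0.260) and LYPD6B from -2.02 to -1.30 (0.000722 to 0.118). Where no value shows the cause, the cause was not tested. The 95% intervals were widest for GPR39, LY6K and LYPD6B, and LY6K had the fewest counts, 15 to 79 in a library.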
